A study of Mus musculus with 2 samples.

Results

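The glycolysis and hypoxia target genes described here are 38 genes chosen by name: 2 glucose transporters, 16 enzymes of the glycolytic steps, the regulatory enzymes Pfkfb3 and Pfkfb4, 4 genes of hypoxia-inducible factor (HIF) and its oxygen sensors, and 14 further targets of hypoxia. All 38 were found among the 32245 gene symbols of both count matrices, where RefSeq's Ero1a is listed as Ero1l. The tumours had been grown under the skin of mice fed a control diet or one lacking serine and glycine (-SG diet in the labels), and each diet is represented by 1 single-cell library. The labels give neither the number of mice pooled in a library nor their strain, age, tumour line or time on the diet. With 1 library per diet there is no replicate and no test between diets, so each difference below is a difference between 2 libraries.

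Cells use glycolysis to turn glucose into pyruvate, and they use it more when oxygen is short. When oxygen falls, the prolyl hydroxylases (Egln1 and Egln3 among them) no longer mark HIF-1α, the product of Hif1a, for destruction. HIF then binds short DNA elements and switches on genes for glucose uptake, glycolysis, blood vessel growth, mitochondrial turnover and pH control. Car9, a carbonic anhydrase on the cell surface, is a widely used sign of hypoxic tumour cells. The comparison asked which of these genes were higher on the serine/glycine-free diet outside such Car9-positive tumour cells, that is, in T cells, natural killer (NK) cells, macrophages and tumour cells without a Car9 molecule.

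Cells were put in classes by their own molecules, counted as unique molecular identifiers (UMIs). CD8 and CD4 T cells carried a TCR beta chain contig and more UMIs of the one coreceptor than of the other, which gave 69 control and 166 serine/glycine-free CD8 cells and 56 and 32 CD4 cells. NK cells carried Ncr1 and no receptor contig (17 and 147 cells). Macrophages had at least 0.1% of their UMIs on C1qa, C1qb and C1qc and no Krt20 (694 and 632 cells). Tumour cells carried Krt20 and no Ptprc, the pan-leukocyte gene, and were divided into those with 0 Car9 UMIs (3487 and 3395 cells), 1 (300 and 350) and 2 or more (334 and 868). The remaining 3308 control and 2334 serine/glycine-free cells were in no class. Few macrophages lay close to their limit, with 19 and 16 cells at 0.1 to 0.2%, but 28.2% and 19.4% of the tumour cells rested on a single Krt20 UMI. Of the 8 epithelial markers, Krt20 and Krt18 alone exceeded 1 CPM in the tumour cells without Car9, Epcam had 1 and 0 UMIs there, and the 6 fibroblast markers summed to 856 and 1165 CPM, so the class is named by its rule and by the tissue label and not by an epithelial profile. The libraries share 104 barcodes, 44 of them in a class in both.

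Within each class and library the UMIs of all cells were summed and scaled to 1000000 UMIs outside T cell receptor and immunoglobulin genes, which gives CPM. Bracketed ranges are 95% intervals from the exact conditional binomial distribution for a ratio, and they cover the error of counting molecules only, not the difference between animals. A gene was measured in a class at a mean of at least 20 CPM and at least 30 UMIs in both libraries together. Higher or lower means a ratio of at least 1.5 after adding 5 CPM to both values. Since a gene passes the floor more easily where it is high, the counts are set beside the share of all measured genes that passed the same limits.

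T and NK cell sums held RNA of tumour cells, and this bears on every value in them. A set of 22 genes, each at 200 CPM or more in tumour cells and at no more than 10% of that level in macrophages, served as tumour tracers. Their median level in the CD8 sums was 35.7% of the tumour level in the control library and 37.6% in the serine/glycine-free one. In NK cells it was 17.6% against 43.6%, in CD4 cells 62.4% against 46.9%, and in macrophages 6.12% against 5.55%. A minority of large cells carried it: the 8 control and 30 serine/glycine-free CD8 cells above 15% held 41.5% and 46.6% of the CD8 UMIs. The 3 and 33 NK cells above that limit held 27.4% and 52.4%. Values are therefore given for the classes as defined and for their low-tracer cells, which are those at or under 15%. These numbered 61 and 136 CD8, 43 and 28 CD4, 14 and 114 NK cells and 655 and 593 macrophages, and carried tracers at 1.40% to 2.84% of the tumour level.

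The short DNA elements that HIF binds share the core letters ACGTG or GCGTG, and 3 promoters show how differently such letters can be spread among members. Their genes were higher, with an interval without 1, in 3 or more classes as defined, where lymphocyte sums held tumour RNA. In low-tracer cells each was higher in 1 of the 4 immune classes. Ndrg1 passed the same limit but has no promoter entry. The sequences are the 250 bases before the RefSeq start site in GRCm38.p6, written 5′ to 3′ on the gene's own strand. Capitals mark every ACGTG or GCGTG on either strand, so that CACGT and CACGC are matches on the other strand and the palindrome CACGTG counts as 2.
Bnip3, chr7:138909507-138909756, minus strand: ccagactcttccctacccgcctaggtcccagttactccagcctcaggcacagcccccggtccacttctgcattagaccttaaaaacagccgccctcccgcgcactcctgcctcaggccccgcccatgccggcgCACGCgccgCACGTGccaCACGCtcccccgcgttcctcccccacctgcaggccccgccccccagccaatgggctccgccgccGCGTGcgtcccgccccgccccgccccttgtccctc
Pgk1, chrX:106186850-106187099, plus strand: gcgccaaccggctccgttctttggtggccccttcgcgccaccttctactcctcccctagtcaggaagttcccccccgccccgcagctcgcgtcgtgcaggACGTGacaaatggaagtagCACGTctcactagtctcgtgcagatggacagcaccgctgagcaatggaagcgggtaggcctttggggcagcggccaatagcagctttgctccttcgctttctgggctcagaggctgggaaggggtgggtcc
Eno2, chr6:124769674-124769923, minus strand: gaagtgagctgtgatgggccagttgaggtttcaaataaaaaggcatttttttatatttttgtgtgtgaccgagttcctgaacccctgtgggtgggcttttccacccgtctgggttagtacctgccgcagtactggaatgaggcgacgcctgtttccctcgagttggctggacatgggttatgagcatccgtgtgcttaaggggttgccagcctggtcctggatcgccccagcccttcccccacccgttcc
The Bnip3 window held 2 ACGTG and 3 GCGTG matches in 4 separate runs, the Pgk1 window held 2 ACGTG matches, and these letters do not occur in the Eno2 window. Of all 32851 promoters in the table, 16.6% held ACGTG and 28.2% held GCGTG within 250 bases. For the 32 members with an entry, which have 48 promoters in the table, 23 of the 48 held ACGTG and 25 held GCGTG. A match is a stretch of letters and not a measured binding site.

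Outside Car9-positive tumour cells a single member, Ndrg1, was higher in the serine/glycine-free library in all 5 classes as defined, and among low-tracer cells it was higher in 3 of the 4 immune classes. Ndrg1 (chr15:66929318-66969641 in GRCm38.p6) encodes a cytoplasmic stress-response protein that is a standard readout of hypoxia. Eno2 was higher in 4 classes, Pgk1, Bnip3 and Ankrd37 in 3, 8 members in 2, 11 in 1 and 14 in none. Among those 14, Pfkm, Aldoc, Car9, Egln3, Adm and Epas1 were measured in none of the 5 classes. By class, the share of all measured genes that was higher ran from 2.14% in tumour cells without Car9 to 16.9% in NK cells. How many of all genes were higher in as many classes is not given here. In the 4 low-tracer immune classes, Hk1 and Bhlhe40 were higher in 2, 15 members in 1 and 20 in none, 8 of which were measured in none of them (Pfkm, Aldoc, Car9, Egln3, P4ha2, Adm, Epas1 and Angptl4). The share of all measured genes that was higher there ran from 2.24% in macrophages to 23.0% in NK cells.

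**Figure D1:**
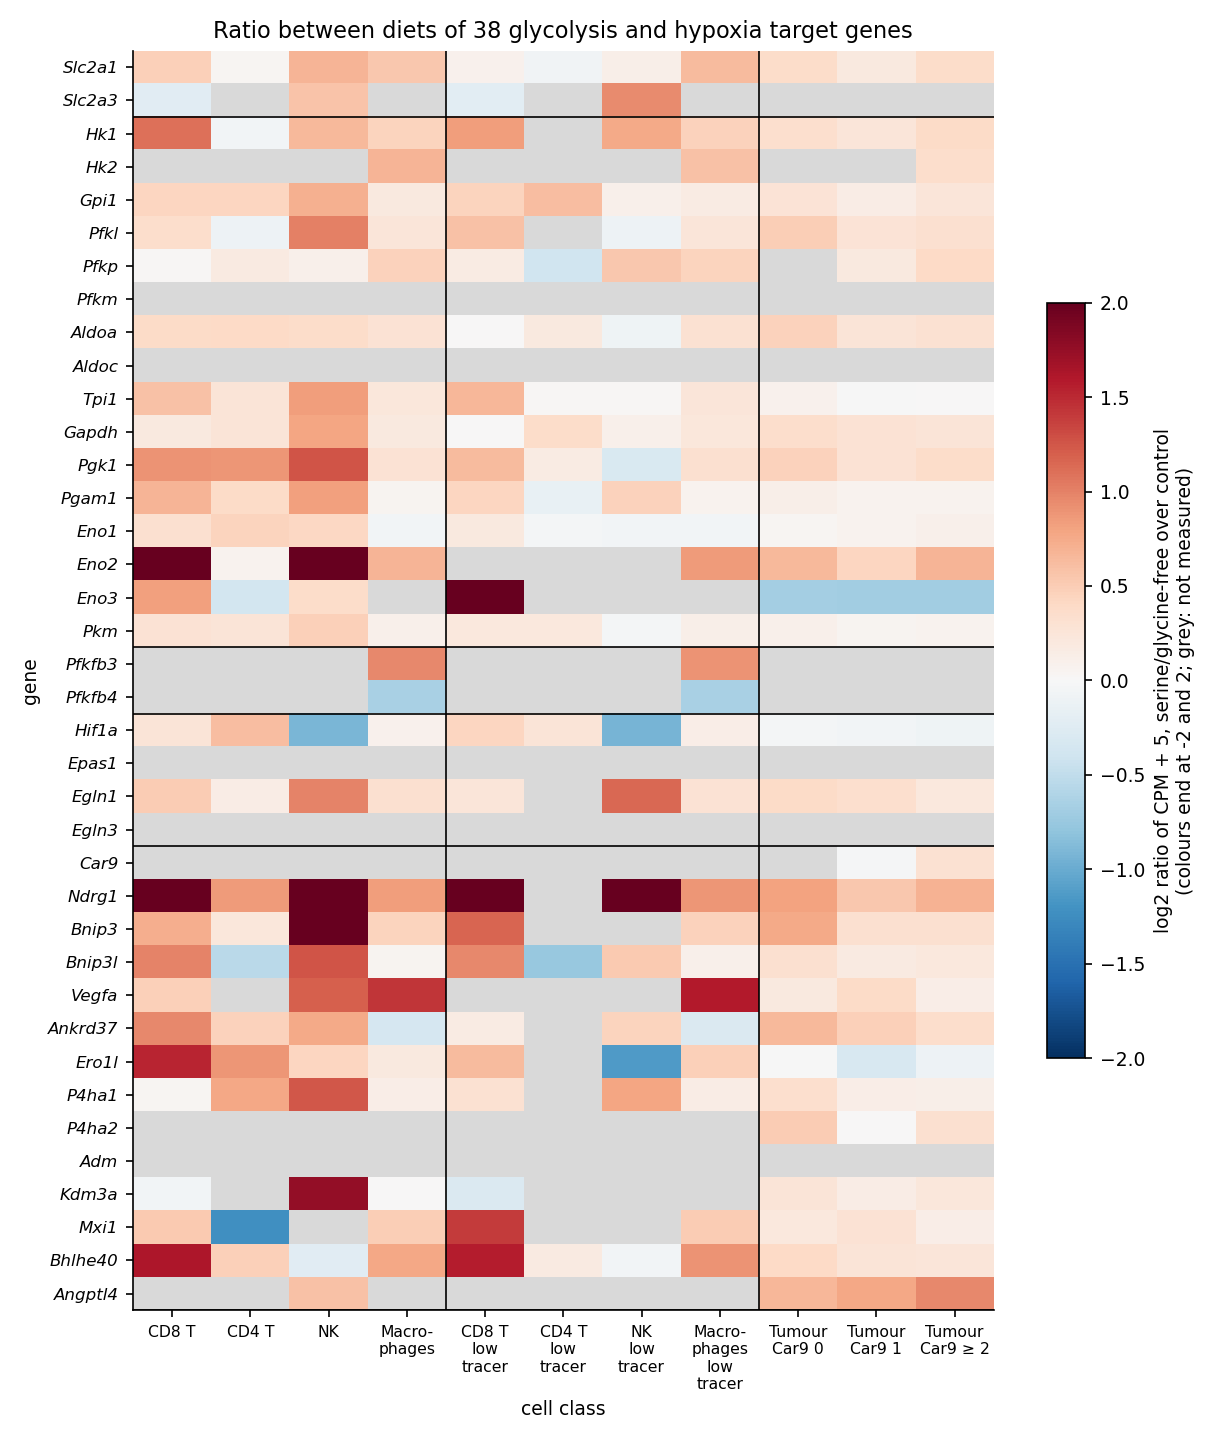
Ratio between diets of every member (rows, grouped by role with black lines) in every class (columns), as log2 of CPM plus 5 in the serine/glycine-free over the control library; grey cells were not measured. The 4 columns on the left hold the immune classes as defined, the 4 in the middle their low-tracer cells, and the 3 on the right tumour cells by Car9 UMIs. Ndrg1 is red in every column in which it was measured, and Eno3 is blue in the tumour columns and red in CD8 cells.

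In CD8 T cells as defined, 11 of 27 measured members were higher and 0 lower, where 7.54% of all measured genes were higher and 10.4% lower. The median log2 ratio was 0.50 over the members and -0.05 over all genes. In low-tracer CD8 cells 10 of 25 were higher and 0 lower, against 13.6% and 11.7% of all genes, with medians of 0.43 and -0.0018. Over all T cells with a TCR beta contig, coreceptor or not, 3 of 30 were higher and 0 lower, against 3.33% and 5.18% of all genes. These were Ndrg1 (1.71), Bhlhe40 (2.33) and Car9 (2.89, 1.72 to 5.11, from 18 and 82 UMIs), in sums whose tumour tracers were at 48.7% and 40.6% of the tumour level. In CD4 cells 5 of 24 were higher and 1 lower, against 11.1% and 13.3%. In low-tracer CD4 cells this was 1 and 1 of 13, against 13.0% and 8.77%, which for these few cells is no more than the background. NK cells as defined had the largest count, 18 of 27 higher and 1 lower against 16.9% and 11.2%, and it differed with the way tumour RNA was handled. In low-tracer NK cells 5 of 21 were higher and 2 lower, against 23.0% and 9.19%. The member median there was 0.10 and the median of all genes 0.13, and 1 of the 5 higher members had an interval that leaves out 1. When all NK cells were kept and the tumour profile of their library was subtracted from the sum at the tracer share instead, 14 of 23 were higher and 1 lower, where 22.7% of all genes were higher. After that subtraction Bnip3l was at 67.1 and 192 CPM, Vegfa at 14.4 and 45.8 CPM, P4ha1 at 28.0 and 79.4 CPM, and Ndrg1 and Bnip3 at 0 in the control and 197 and 126 CPM in the serine/glycine-free library. The control NK sum held 6 Ndrg1 and 8 Bnip3 UMIs. Those 0 values mean that the subtracted amount reached the counted one, not that the RNA was absent. In NK cells without a Krt20 UMI, some of them above the tracer limit, 9 of 23 were higher, where 21.6% of all genes were. In CD8 cells the subtraction left 11 of 25 higher, where 15.2% of all genes were.

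Macrophages and tumour cells were measured far more deeply, with 7053657 to 90884558 UMIs per class and library in macrophages and in tumour cells without Car9, and fewer genes passed the limits there. In macrophages 6 of 28 measured members were higher and 1 lower, against 2.15% and 1.43% of all genes. Low-tracer macrophages gave 6 and 1 of 27, against 2.24% and 1.42%. In tumour cells without Car9, 5 of 27 were higher and 1 lower, against 2.14% and 0.543%. In these cells and in macrophages the member medians of 0.34 and 0.26 lay above the medians of all genes of -0.08 and -0.10.

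Ndrg1 was at 154 CPM in control and 288 CPM in serine/glycine-free low-tracer macrophages, a ratio of 1.87 (1.73 to 2.03). In tumour cells without Car9 it was at 134 against 239 CPM, a ratio of 1.78 (1.74 to 1.82). Low-tracer CD8 cells held 2 control Ndrg1 UMIs (7.23 CPM) and 70 in the serine/glycine-free library (69.3 CPM), a ratio of 9.58 (2.56 to 80.7). The serine/glycine-free library was thus the higher in each, with a wide interval in CD8 cells because the control value rests on so few molecules. Low-tracer NK cells held 1 UMI (4.61 CPM) and 48 (63.7 CPM), a ratio of 13.8 (2.36 to 556). In low-tracer CD4 cells both libraries had 7 UMIs, at 55.4 and 62.6 CPM, under the floor for a measured gene. In all cells of the classes, Ndrg1 was at 29.6 and 175 CPM in CD8, 140 and 256 in CD4, 20.1 and 254 in NK cells and 168 and 306 in macrophages.

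Low-tracer cells still held some tumour and macrophage RNA. At the tracer share of 2.29%, the tumour level of 325 CPM would give 7.45 CPM of Ndrg1 in serine/glycine-free CD8 cells, and macrophage markers at 2.27% of their level in macrophages would give 6.95 CPM more, against 69.3 CPM measured. In control CD8 cells the same values were 4.25 and 8.22 CPM, against 7.23 CPM measured, so the control level was not above them. In serine/glycine-free NK cells they were 4.75 and 12.0 CPM, against 63.7 CPM measured. Macrophage markers summed to 9.22 CPM in control and 951 CPM in serine/glycine-free low-tracer NK cells, and to 1067 and 549 CPM in CD8 cells. Ndrg1 UMIs were seen in 30.1% of the serine/glycine-free and 3.28% of the control low-tracer CD8 cells. After each cell was thinned to 1000 UMIs, which left out 4 and 2 shallower cells, the shares were 9 of 134 cells (6.72%, exact interval 3.12% to 12.4%) and 0 of 57, with an upper bound of 6.27%. The 2 intervals overlap. In low-tracer macrophages 43.5% and 61.9% carried an Ndrg1 UMI, and the thinned shares were 12.5% (10.0% to 15.3%) and 21.4% (18.1% to 25.0%), and in tumour cells without Car9 11.2% and 17.9%.

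**Figure D2:**
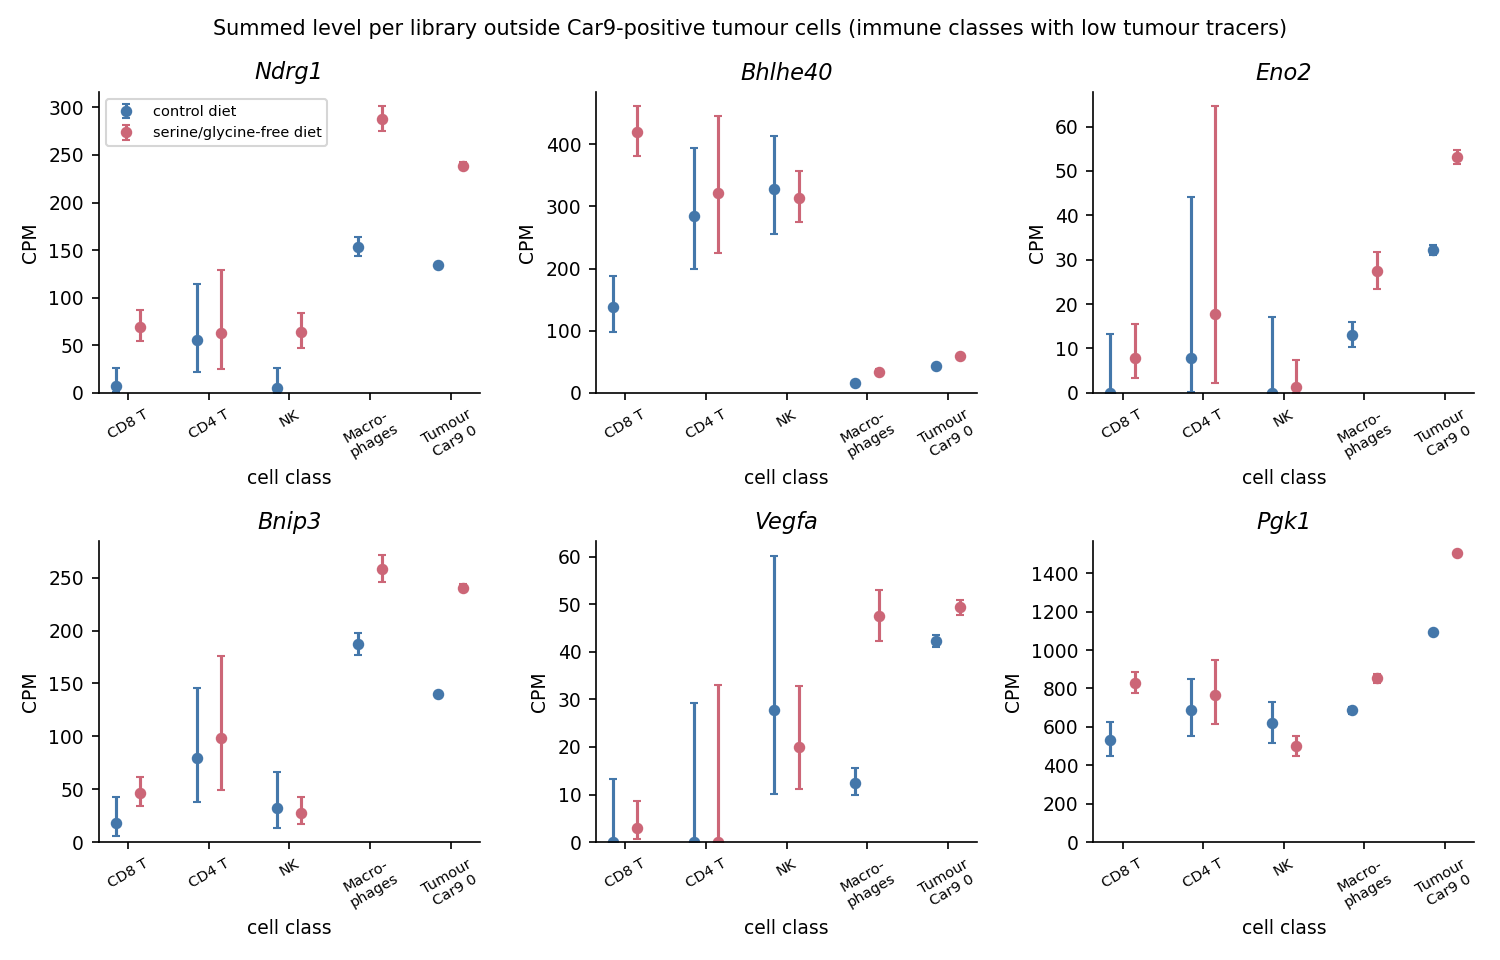
Summed level in CPM of 6 members in the control (blue) and serine/glycine-free (red) library, for low-tracer T cells, NK cells and macrophages and for tumour cells without Car9. Points are 1 library each and bars are exact 95% Poisson intervals for counting error; red points lie above blue ones for Ndrg1 in every class shown, while for Pgk1 the order turns in NK cells (618 against 499 CPM).

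Glucose transporters differed between the libraries mainly in macrophages. Slc2a1, which brings glucose into most cells, was at 113 and 178 CPM in low-tracer macrophages, a ratio of 1.58 (1.44 to 1.73), and at 118 and 175 CPM in all macrophages, which missed the limit. NK cells as defined had 73.7 and 121 CPM (1.64, 1.05 to 2.68), but in low-tracer CD8, CD4 and NK cells its ratios were 1.07, 0.951 and 1.09, and in tumour cells without Car9 it was 1.31. Slc2a3, the high-affinity transporter of lymphocytes and neurons, was measured in CD8 and NK cells, at 61.5 and 52.5 CPM in low-tracer CD8 cells and at 5 and 37 UMIs in low-tracer NK cells, both with an interval that holds 1.

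The glycolytic enzymes were slightly higher as a group. Summed over the 16 enzymes, they took 0.999% of macrophage UMIs in the control library and 1.11% in the serine/glycine-free one, a ratio of 1.11 (1.10 to 1.12). In tumour cells without Car9 the sum was 1.06% against 1.21%, a ratio of 1.14, and in low-tracer CD8 cells 0.668% against 0.819%, a ratio of 1.23 (1.17 to 1.29). It was 0.688% against 0.684% in low-tracer NK cells and 0.864% against 0.935% in low-tracer CD4 cells, with both intervals holding 1. In NK cells as defined the same sum had a ratio of 1.55 (1.48 to 1.62), against 0.995 in the low-tracer cells.

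Among single enzymes, Pgk1, which makes the first ATP of the pathway, was at 532 and 830 CPM in low-tracer CD8 cells, a ratio of 1.56 (1.31 to 1.87). Tpi1, the triose phosphate isomerase, was at 542 and 864 CPM there, a ratio of 1.59 (1.34 to 1.91). The Pgk1 ratio was 1.12 in low-tracer CD4 cells, 1.24 in low-tracer macrophages, 1.37 in tumour cells without Car9 and 0.807 (0.661 to 0.990) in low-tracer NK cells. In the classes as defined it was 1.86 in CD8, 1.85 in CD4 and 2.40 in NK cells. The NK value thus turned with the tracer limit, but it stayed higher in NK cells without a Krt20 UMI (log2 ratio 0.60) and after the tumour profile was subtracted (465 and 910 CPM). The 15 control and 127 serine/glycine-free NK cells without a Krt20 UMI still included cells above the tracer limit. They held 240338 and 1000819 UMIs, against 216913 and 754544 in the 14 and 114 low-tracer NK cells. Gpi1, the glucose phosphate isomerase, was the one member higher in low-tracer CD4 cells, at 435 and 670 CPM (1.54, 1.07 to 2.22). The abundant enzymes Aldoa, Gapdh, Eno1 and Pkm had ratios between 0.942 and 1.29 in every low-tracer immune class, and Aldoa reached 1.37 in tumour cells without Car9. Pgam1 and Gapdh were higher in NK cells as defined (1.78 and 1.73), as were Tpi1 (1.78), Gpi1 (1.64) and Pfkl (2.11), and Pgam1 in CD8 cells (1.61). In low-tracer NK cells Pgam1 was at 1.38 (1.05 to 1.85) and the other 4 were between 0.929 and 1.07.

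The hexokinases and the neuronal enolase were low and uneven. Hk2, the inducible hexokinase, was at 18.9 and 33.3 CPM in macrophages, a ratio of 1.76 (1.42 to 2.19), and at 18.8 and 30.5 CPM in low-tracer macrophages, which missed the limit after the added 5 CPM. Hk1 was higher in CD8 cells as defined, at 27.5 and 64.4 CPM (2.34, 1.32 to 4.53). In low-tracer CD8 and NK cells its ratios of 1.89 and 1.82 had intervals that hold 1. Eno2 was at 13.0 and 27.4 CPM in low-tracer macrophages (2.11, 1.62 to 2.77) and at 32.2 and 53.2 CPM in tumour cells without Car9 (1.65, 1.58 to 1.73). In T and NK cells most of its UMIs lay in cells above the tracer limit. CD8 cells as defined held 2 and 81 Eno2 UMIs (4.23 and 42.8 CPM; 10.1, 2.71 to 85.0) and NK cells 1 and 78 (3.35 and 49.2 CPM; 14.7, 2.56 to 587). Low-tracer CD8 cells held 0 and 8 and low-tracer NK cells 0 and 1. CD4 cells as defined held 25 and 16, at 53.1 and 56.0 CPM.

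Eno3, the muscle-type enolase, stood against the other members. In tumour cells without Car9 it was at 165 CPM in the control library and 101 CPM in the serine/glycine-free one, a ratio of 0.612 (0.596 to 0.629). With all UMIs kept, it was the one member that was lower in tumour cells, and its ratios with 1 and with 2 or more Car9 UMIs were 0.604 and 0.606. In CD8 cells as defined it was at 78.2 and 143 CPM, a ratio of 1.82 (1.29 to 2.64), and in low-tracer CD8 cells at 28.9 and 170 CPM, a ratio of 5.89 (2.92 to 13.9). Tumour RNA at the measured share would give 4.35 and 2.29 CPM. Eno3 was at 119 and 91.0 CPM in CD4 cells, 36.8 and 49.2 CPM in NK cells and under the floor in macrophages.

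Of the enzymes that set the level of fructose 2,6-bisphosphate, an activator of glycolysis, both were measured in macrophages alone, and they went opposite ways. Pfkfb3 was at 24.0 CPM in control and 51.6 CPM in serine/glycine-free macrophages, a ratio of 2.15 (1.79 to 2.59). Pfkfb4 was at 26.5 and 15.2 CPM, a ratio of 0.572 (0.447 to 0.728). Low-tracer macrophages gave 2.03 and 0.572.

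The RNA of Hif1a differed little in the classes with many cells. It was at 48.5 and 52.0 CPM in macrophages and at 36.5 and 35.6 CPM in tumour cells without Car9, with intervals that hold 1. In low-tracer CD8 cells the ratio was 1.35 (0.973 to 1.91). NK cells went the other way, at 87.6 CPM (19 UMIs) in the 14 control and 43.8 CPM (33 UMIs) in the 114 serine/glycine-free low-tracer cells, a ratio of 0.499 (0.276 to 0.930). CD4 cells as defined had a ratio of 1.55 (1.07 to 2.23) and low-tracer CD4 cells 1.20 (0.796 to 1.81). Egln1, the main oxygen sensor that limits HIF and a HIF target itself, had ratios of 1.27 in macrophages and 1.33 in tumour cells without Car9. In NK cells it was at 2.10 (1.19 to 4.04) as defined, and the 5 and 43 UMIs of low-tracer NK cells left an interval that holds 1. HIF acts through protein stability, which these counts do not measure.

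The largest ratio of macrophages was that of Vegfa, the vascular growth factor. It was at 15.1 CPM in the control library and 49.2 CPM in the serine/glycine-free one, a ratio of 3.27 (2.63 to 4.09), and at 12.5 and 47.5 CPM in low-tracer macrophages (3.79, 2.96 to 4.90). After thinning to 1000 UMIs, 1.42% (0.652% to 2.68%) of control and 5.18% (3.52% to 7.31%) of serine/glycine-free low-tracer macrophages carried a Vegfa UMI, against 9.62% and 25.6% before thinning. Thinned low-tracer CD8 cells gave 0 of 57 and 0 of 134, with upper bounds of 6.27% and 2.72%. Tumour cells without Car9 differed less, at 42.3 and 49.3 CPM. Low-tracer CD8 cells held 0 and 3 Vegfa UMIs, and the 20.1 and 52.4 CPM of NK cells as defined (2.60, 1.15 to 7.30) became 27.7 and 19.9 CPM in low-tracer cells.

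Bhlhe40, a transcription repressor of activated lymphocytes and myeloid cells, was higher in CD8 cells and macrophages. In low-tracer CD8 cells it was at 137 CPM (38 UMIs) and 420 CPM (424 UMIs), a ratio of 3.06 (2.19 to 4.38), where tumour RNA at the measured share would give 1.33 and 1.71 CPM. CD8 cells as defined had 88.8 and 284 CPM (3.19, 2.33 to 4.48). A Bhlhe40 UMI was seen in 32.8% of the control and 75.0% of the serine/glycine-free low-tracer CD8 cells, and after thinning in 14.0% (6.26% to 25.8%) and 32.8% (25.0% to 41.5%), beside 1.58% and 3.63% of low-tracer macrophages. In macrophages it was at 19.2 and 36.4 CPM (1.90, 1.54 to 2.35), and in low-tracer macrophages at 15.7 and 33.6 CPM (2.14, 1.68 to 2.73). In low-tracer CD4 and NK cells the values were 285 and 322 CPM and 327 and 314 CPM, with intervals that hold 1.

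Bnip3 and Bnip3l encode receptors for the removal of mitochondria. Bnip3 was at 140 and 241 CPM in tumour cells without Car9, a ratio of 1.72 (1.69 to 1.76), and at 18.1 and 46.5 CPM in low-tracer CD8 cells (5 and 47 UMIs; 2.57, 1.03 to 8.29). CD8 cells as defined had 99.4 and 168 CPM (1.69, 1.24 to 2.35). Its ratio in macrophages was 1.37, and in low-tracer NK cells it was at 32.3 and 27.9 CPM, where NK cells as defined had 26.8 and 221 CPM (8.24, 4.13 to 19.2). CD4 cells as defined had 227 and 266 CPM. Bnip3l was at 86.8 and 174 CPM in low-tracer CD8 cells (2.01, 1.31 to 3.22), close to its ratio of 2.04 in CD8 cells as defined, and at 104 and 112 CPM in low-tracer macrophages. NK cells as defined had 83.7 and 208 CPM (2.48, 1.65 to 3.89), and low-tracer NK cells 87.6 and 129 CPM, with an interval that holds 1. In low-tracer CD4 cells it was at 229 and 134 CPM, with an interval that holds 1. The 7 erythroid markers summed to 11373 CPM in these control CD4 cells and 0 in the serine/glycine-free ones, and their part in the Bnip3l value was not tested.

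Among the remaining targets, Mxi1, a MYC antagonist, was at 14.5 and 46.5 CPM in low-tracer CD8 cells (4 and 47 UMIs, ratio 3.22, 1.18 to 12.3). In CD4 cells as defined Mxi1 was lower, at 72.2 and 28.0 CPM (34 and 8 UMIs, ratio 0.388, 0.155 to 0.854). Low-tracer CD4 cells held 8 and 3 Mxi1 UMIs, under the floor. Erythroid markers summed to 3052 CPM in control and 0 in serine/glycine-free CD4 cells as defined, and their part in the Mxi1 value was not tested. Ankrd37, a short ankyrin repeat protein, was at 29.2 and 48.7 CPM in tumour cells without Car9, a ratio of 1.67 (1.59 to 1.75), and at 75.4 and 58.8 CPM in macrophages (0.780, 0.685 to 0.888). In CD8 cells its ratio of 2.16 as defined became 1.14 in low-tracer cells. In NK cells it was at 30.1 and 54.2 CPM and in CD4 cells at 44.6 and 63.0 CPM, with intervals that hold 1. Angptl4, a secreted inhibitor of lipoprotein lipase, was at 34.5 and 57.8 CPM in tumour cells without Car9 (1.68, 1.60 to 1.75). In NK cells as defined it was at 16.7 and 27.8 CPM (5 and 44 UMIs), with an interval that holds 1. Low-tracer NK cells held 2 and 12 Angptl4 UMIs, and the tumour-subtracted NK values were 13.1 and 4.91 CPM, both under the floor. It was also under the floor in the other immune classes. Ero1l, an oxidase of the endoplasmic reticulum, was higher in CD8 (3.09) and CD4 cells (1.88) as defined. In low-tracer CD8 cells it was at 28.9 and 47.5 CPM with an interval that holds 1, and in low-tracer NK cells it was lower, at 166 and 72.9 CPM (0.439, 0.283 to 0.689). P4ha1, a collagen prolyl hydroxylase, was higher in CD4 (1.76) and NK cells (2.53) as defined, and Kdm3a, a histone demethylase, in NK cells (5.18, from 2 and 55 UMIs). Neither had an interval without 1 in a low-tracer class where it was measured.

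**Figure D3:**
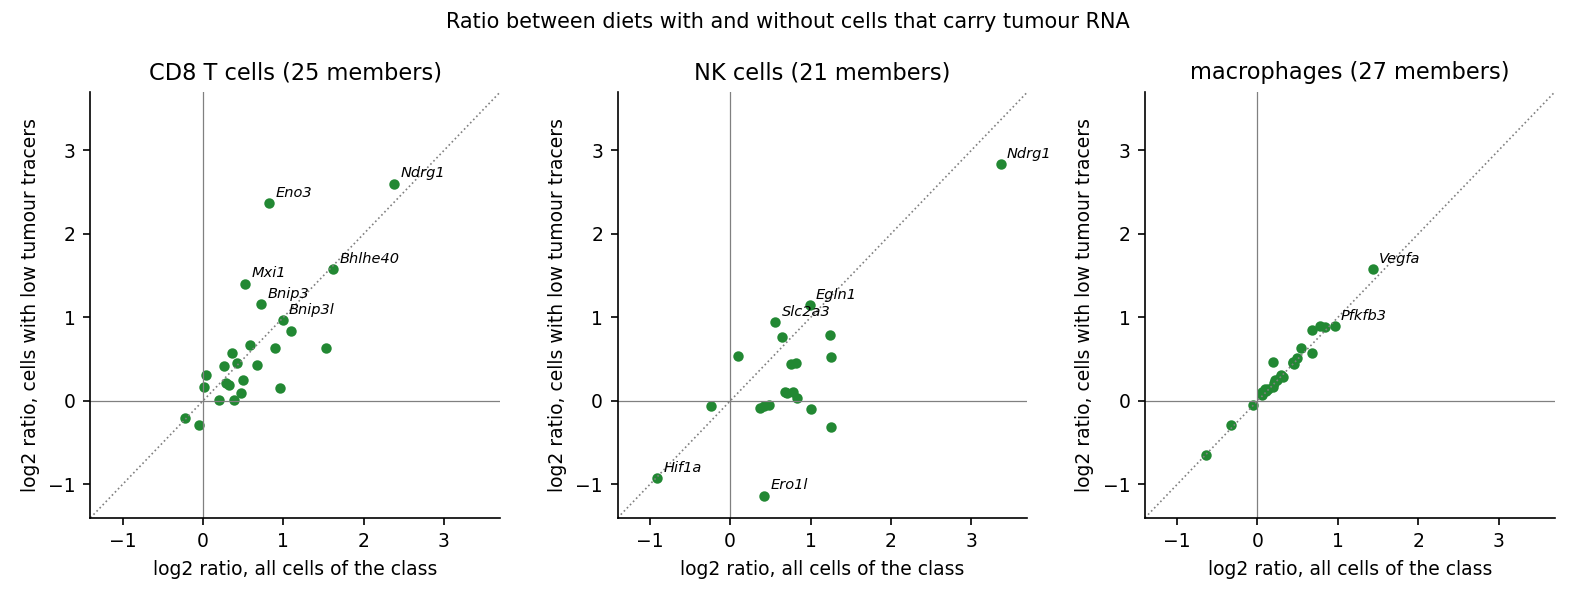
Log2 ratio between diets of each member in low-tracer cells (vertical axis) against the same value in all cells of the class (horizontal axis), for CD8 cells, NK cells and macrophages; each point is 1 member measured in both, and the dotted line marks equal values. Macrophage points lie close to the line, 16 of 21 NK points lie below it and 5 above, with a median of 0.10 against 0.71 over the same 21 members, and Ndrg1 is at 2.60 in low-tracer CD8 and 2.84 in low-tracer NK cells.

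A single expanded clone and cell division differed between the CD8 sums. The largest clonotype had 4 of the 69 control and 61 of the 166 serine/glycine-free CD8 cells, and 6 division markers summed to 835 and 1345 CPM in low-tracer CD8 cells. Division differed in the other low-tracer immune classes too, at 899 and 577 CPM in NK cells, 467 and 1028 in CD4 cells and 810 and 559 in macrophages. Only 4 of the 14 control but 80 of the 114 serine/glycine-free low-tracer NK cells had no Mki67 and no Top2a UMI. No member values of those NK cells alone are given here. Without the largest clonotype, low-tracer CD8 cells kept log2 ratios of 2.67 for Ndrg1, 2.07 for Eno3, 1.52 for Mxi1, 1.33 for Bhlhe40 and 0.99 for Bnip3l. Tpi1 (0.72), Pgk1 (0.61) and Bnip3 (1.04) also stayed past the limit, while Hk1 (0.43) and Ero1l (0.48) did not. Among the 38 control and 77 serine/glycine-free low-tracer cells with no Mki67 and no Top2a UMI, 4 members were past the limit: Bhlhe40 (1.65), Eno3 (1.33), Bnip3l (1.10) and Tpi1 (0.93). Pgk1 (0.48) and Hk1 (0.0086) were not, and Ndrg1 (1 and 26 UMIs), Bnip3, Mxi1 and Ero1l were under the floor there. The control sum of these cells held 114604 UMIs. The share of all measured genes past the limit in them is not given here, so the count of 4 has no background beside it. The median depth of low-tracer CD8 cells was 3369 UMIs in the control library and 6353 in the serine/glycine-free one, and the part of depth in the CD8 values beyond the thinned shares was not tested.

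Tumour cells with Car9 UMIs made up more of the serine/glycine-free library, so the members were also compared across the Car9 classes. Cells with 2 or more Car9 UMIs were 8.10% (7.29% to 8.98%, exact Clopper-Pearson) of control and 18.8% (17.7% to 20.0%) of serine/glycine-free tumour cells. After thinning each tumour cell to 5000 UMIs the shares were 1.62% (1.26% to 2.06%) and 4.38% (3.81% to 5.02%). Any Car9 UMI was seen in 15.4% and 26.4% of tumour cells, and in 9.51% and 10.9% of macrophages, which have median depths of 9585 and 10472 UMIs against 25087 and 23206 in tumour cells. Among all T cells with a TCR beta contig, at median depths of 2754 and 5845 UMIs, it was seen in 2.48% and 6.17%. The tumour shares of any Car9 UMI stand above these, but they come from deeper cells. Once tumour cells were thinned to 5000 UMIs, no Car9 UMI was left in 93.7% (control library) and 87.2% (serine/glycine-free library). Shares at equal depth are not given here for macrophages or T cells, so the classes cannot be ranked by Car9. How much of the Car9 in tumour cells is free RNA was not tested.

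Within each library, nearly all measured members were higher in cells with more Car9 UMIs. Going from 0 to 2 or more Car9 UMIs, 24 of 27 members (Car9 aside) were at least 1.5-fold higher in the control library and 26 of 29 in the serine/glycine-free library, where 1.37% and 1.40% of all measured genes were. The strongest were Ankrd37 (5.14-fold in the control library, 3.97-fold in the other), P4ha2 (4.24 and 3.43), Bnip3 (3.59 and 2.59) and Pgk1 (3.17 and 2.97), and Ero1l, which was at 126 CPM without Car9 and at 540 and 502 CPM with 2 or more Car9 UMIs. Hif1a (1.01 and 0.968) and Angptl4 (0.735 and 0.932) were not higher with Car9 in either library, nor was Eno3, at 165 against 158 CPM in the control and 101 against 95.8 CPM in the serine/glycine-free library. Of the 6 members that differed between diets in cells without Car9, Ndrg1, Bnip3, Ankrd37 and Eno2 were thus among those higher with Car9, and Angptl4 and Eno3 were not.

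Within the Car9-positive classes few members passed the limit, but most had a ratio between diets over 1, as outside them. These were 24 of 29 with 1 Car9 UMI and 27 of 30 with 2 or more, against 37.3% and 34.5% of all genes. The median log2 ratios of the members were 0.20 and 0.25, and those of all genes -0.06 and -0.07. Summed over the 16 glycolytic enzymes, the ratios were 1.09 and 1.13. Cells with 2 or more Car9 UMIs were not matched in Car9 itself, at 137 CPM in the control and 171 CPM in the serine/glycine-free library. The part of this in the ratios of that class was not tested. With 1 Car9 UMI, 1 of 29 members was higher and 1 lower, against 1.47% and 0.850% of all genes. With 2 or more, 3 of 30 were higher and 1 lower, against 1.53% and 0.738%. Angptl4 was at 34.4 and 62.2 CPM in the former and 25.3 and 53.8 CPM in the latter, ratios of 1.81 (1.57 to 2.09) and 2.12 (1.85 to 2.45). Ndrg1 was at 357 and 582 CPM with 2 or more Car9 UMIs (1.63, 1.57 to 1.69) and at 224 and 326 CPM with 1. Eno2 was at 94.5 and 154 CPM (1.63, 1.51 to 1.75) and at 68.5 and 94.0 CPM. In both classes Pgk1 (1.22 and 1.29), Bnip3 (1.25 and 1.25) and Ankrd37 (1.42 and 1.29) stayed under the limit. In all tumour cells together 9 of 28 were higher and 1 lower, against 1.79% and 0.677%, and the Pgk1 ratio was 1.65 where no Car9 class exceeded 1.37.

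A cell with 0 Car9 UMIs can still express Car9, and the control cells of that class were deeper, with a median of 25029 against 21428 UMIs. With cells thinned to 5000 UMIs before the class was called, the log2 ratios without Car9 were 0.79 for Ndrg1, 0.79 for Bnip3, 0.76 for Eno2, 0.57 for Ankrd37, 0.40 for Angptl4 and -0.73 for Eno3. Ankrd37 and Angptl4 were then under the limit. In thinned cells with 2 or more Car9 UMIs, Ero1l was lower as well as Eno3, at 1021 and 653 CPM (337 and 650 UMIs, log2 ratio -0.64). Thinning itself moved cells with Car9 UMIs into the class with 0. That class held 3806 control and 3960 serine/glycine-free cells after thinning, against 3487 and 3395 before. The thinned ratios therefore cannot show whether the differences lie outside Car9-expressing cells. How many Car9-expressing cells are counted among those with 0 was not measured.

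**Figure D4:**
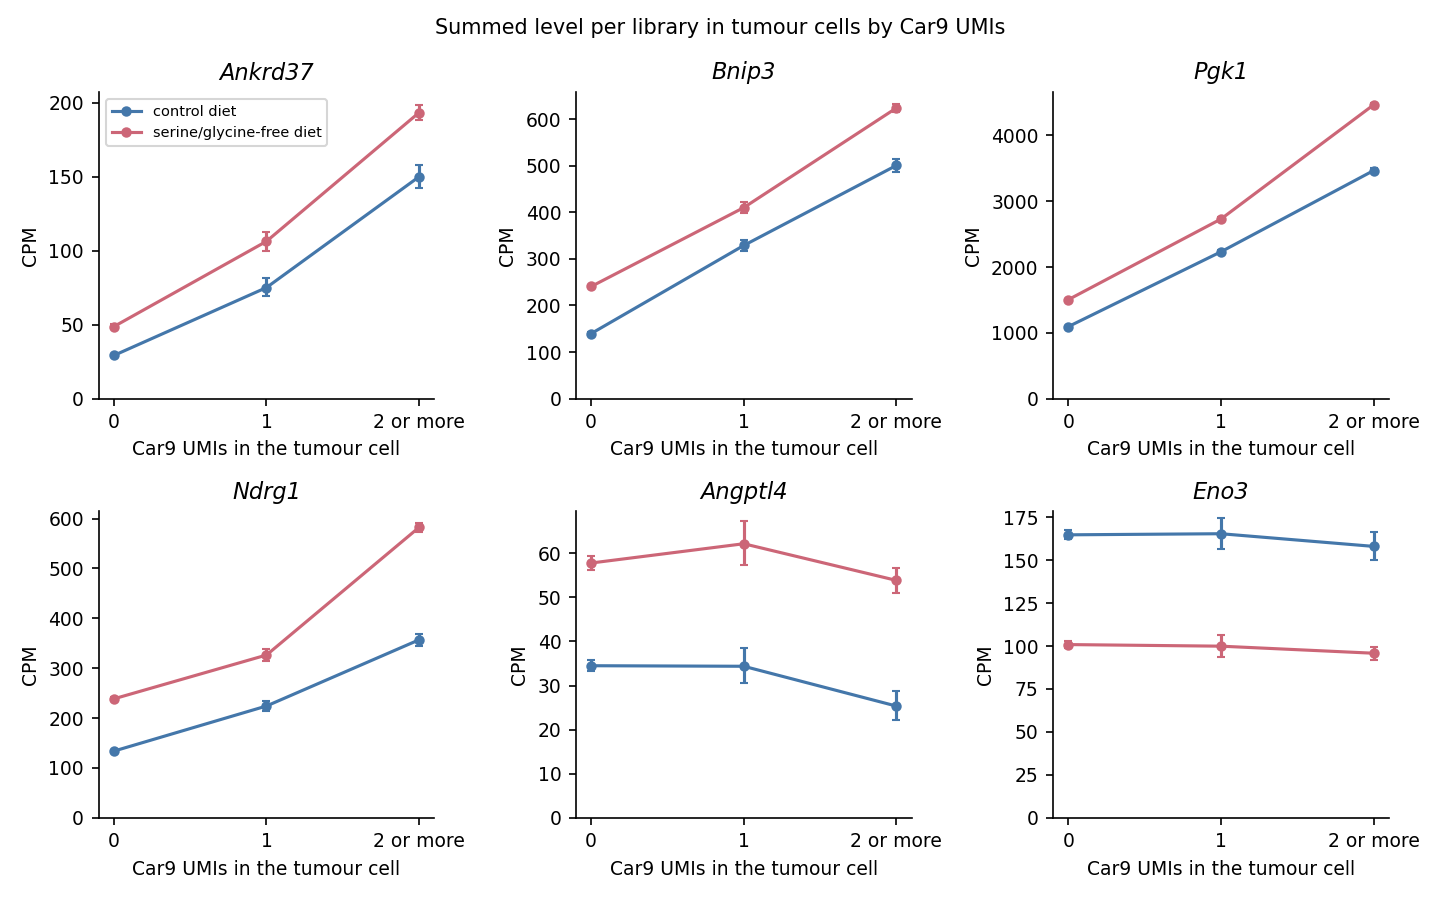
Summed level in CPM of 6 members in tumour cells with 0, 1 and 2 or more Car9 UMIs, for the control (blue) and the serine/glycine-free (red) library; bars are exact 95% Poisson intervals for counting error. Ankrd37, Bnip3, Pgk1 and Ndrg1 climb with Car9 in both libraries, Eno3 stays nearly level, and Angptl4 is lower in control cells with 2 or more Car9 UMIs (25.3 CPM) than in those with 0 (34.5 CPM).

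A list of 55 further genes of pyruvate and lactate handling, the pentose phosphate pathway, glycogen and glycerol branches, HIF regulation and hypoxia response was compared in the same way. In macrophages 2 of 30 measured genes were higher and 0 lower, where 2.15% and 1.43% of all genes were. In tumour cells without Car9 it was 2 of 32 and 0, against 2.14% and 0.543%, and in both classes the higher genes were Ddit4 and Dusp1. Ddit4, an inhibitor of mTORC1 signalling under stress, was at 39.1 and 156 CPM in tumour cells without Car9, a ratio of 3.99 (3.85 to 4.15), and at 24.3 and 45.9 CPM in macrophages. Dusp1, a phosphatase of MAP kinases, was at 321 and 884 CPM and at 908 and 1465 CPM. In low-tracer CD8 cells 6 of 27 were higher and 2 lower, against 13.6% and 11.7% of all genes, with Ugp2 (3.77), Dusp1 (2.62), Fam162a (2.13) and Gpd2 (1.75) leaving out 1. In low-tracer NK cells it was 4 and 2 of 20, close to the 23.0% and 9.19% of all genes, with Dusp1 (4.37), Ddit4 (2.79), Cited2 (2.44) and, lower, Mpc1 (0.575). In low-tracer CD4 cells Cited2 (2.09) was 1 of 2 higher genes of 10, where 13.0% of all genes were higher. The Ddit4 ratio of tumour cells was 2.55 with 1 Car9 UMI and 1.79 with 2 or more, and the Dusp1 ratio 2.11 and 1.99.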

How the data were processed

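Per the labels, cells of the tumours were profiled with 10x Genomics immune profiling, which reads transcripts and T cell receptor chains of the same cells. The deposited matrices hold UMI counts per gene and barcode, not normalized, and the contig tables list assembled receptor chains. Cell Ranger 7.1.0 made the counts per the file headers. In the submitters' processing notes the version is 2.2.2 and the build mm10. An extraction text in the labels speaks of human heart, although organism, source and design text give mouse tumours. The control library held 8466 barcodes and 161332426 UMIs (median 17540 per barcode) and the serine/glycine-free library 7999 and 157234945 (16770).

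Barcodes with fewer than 300 genes or over 20% mitochondrial UMIs were dropped, leaving 8262 and 7913. No doublets were removed: Scrublet, run in scanpy 1.11.5, called 2 and 0 cells, so its automatic threshold did not work, and an alternative dropped every cell scoring over 0.25 (159 and 145). Counts were summed per class with scipy 1.17.1 and numpy 2.4.6, and the summing and the intervals were tested on simulated data. A second identifier of Aldoa, with 0.272% and 0.199% of its UMIs, was added to it. The near-identical copy Eno1b took 2.25% and 2.37% of the UMIs of Eno1 and Eno1b, and reads could be split between them.

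The members and all lists were chosen with earlier results of these data known. A member is named in a class at a ratio of at least 1.5 either way with an interval without 1, and members past that ratio in 3 or more classes are given in all. From the further list, at most 4 genes per class are named. The tumour tracers and the combinations with them were added after the data were seen. The alternatives covered cell filters, scaling, floor, pseudocount, fold, doublets, Krt20-positive lymphocytes, dividing cells, clonotype, the C1q, Krt20 and Car9 limits and thinning.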

Additional observations from a re-analysis of the deposited data

Results flagged for a closer look

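Eno3 went in opposite directions between the libraries in different classes: its ratio was 1.82 in CD8 T cells and 0.612, 0.604 and 0.606 in tumour cells with 0, 1 and 2 or more Car9 UMIs. Hif1a did so between lymphocyte classes as defined, with a ratio of 1.55 in CD4 T cells and 0.502 in NK cells. In low-tracer CD4 cells the Hif1a ratio was 1.20 (0.796 to 1.81), with an interval that holds 1. In low-tracer NK cells it was 0.499 (0.276 to 0.930). Neither the Eno3 nor the Hif1a difference was tested, since each diet has 1 library.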

How the results depend on the processing

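No paired analysis was possible because each diet has 1 library. Counts of higher members moved by more than 1.5 times as follows. The share of all measured genes is given above for low-tracer cells and for NK cells without a Krt20 UMI. The other counts have no such share beside them. At a fold of 2 the CD8 count of 11 became 5, the NK count of 18 became 9, the macrophage count of 6 became 1, and those of CD4 cells (5) and of tumour cells with 0 (5), 1 (1) and 2 or more Car9 UMIs (3) became 0. With low tumour tracers the CD4 count was 1 and the NK count 5, and the CD8 count was 4 when dividing cells were left out as well. Weighting every cell equally gave 5 in NK cells and 3 in tumour cells without Car9, and leaving out Krt20-positive lymphocytes gave 9 in NK cells. Leaving out cells with a Scrublet score over 0.25 gave 2 in CD4 cells. Leaving out dividing cells gave 9 in CD4 cells and 1 in tumour cells with 2 or more Car9 UMIs. A floor of 50 CPM left 1 in macrophages, 2 in tumour cells without Car9 and 0 in those with 1 Car9 UMI, as fewer genes were tested. A pseudocount of 20 CPM left 3 in macrophages and 2 in tumour cells without Car9. For tumour cells with 1 Car9 UMI, centring on the median of all genes gave 2, a limit of 3 Krt20 UMIs gave 2 and thinning to 5000 UMIs gave 3, and thinning gave 3 without Car9. The share with 2 or more Car9 UMIs was 1.62% and 4.38% after thinning, which leaves fewer UMIs per cell, and 20.6% in the serine/glycine-free library with 3 or more Krt20 UMIs. Except where the construction shows it, the cause was not tested.

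Among values above the floor for a measured gene, the direction turned for 5 log2 ratios of named members: Ankrd37 in CD8 cells without dividing cells (-0.15), Pgk1 in CD4 cells without Krt20-positive cells (-0.19), P4ha1 in CD4 cells with equal weights (-0.043), and Pfkl (-0.10) and Pgk1 (-0.31) in NK cells with low tracers. With low tracers 4 more turned on values under the floor: Bnip3 (-0.18) and Vegfa (-0.39) in NK cells and P4ha1 (-0.27) and Ero1l (10 control and 3 serine/glycine-free UMIs) in CD4 cells. Of the values of named members above the floor under all alternatives, 182 of 183 kept their direction in CD8, 82 of 84 in CD4 and 223 of 225 in NK cells. All 92 did so in macrophages, as did 81, 27 and 55 in tumour cells with 0, 1 and 2 or more Car9 UMIs. A change of floor, pseudocount or fold cannot turn a direction, and values under the floor are left out. These counts are therefore no measure of how stable the directions are. Depth limits the control lymphocytes most, since 14 low-tracer NK cells and 43 low-tracer CD4 cells held 216913 and 126800 UMIs.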
